A study of Silurus asotus with 15 samples.

Results

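The testis library is 1 of 15 poly(A) RNA libraries of the Amur catfish (Silurus asotus), and it is described here against the 14 others over all 25089 genes of the table. The other libraries came from ovary, pituitary, heart, muscle, liver, pancreas, spleen, kidney, head kidney, skin, maxillary barbel and mandibular barbel, with 2 more labelled brain and gill. All are labelled as adult fish taken from the bottom-dwelling habitat, with no treatment, strain, sex or number of fish given. Each tissue is 1 library, so there is no spread between replicates and no test, and every count below applies a threshold to the levels of single libraries. The unit is FPKM, which scales the fragments of a gene by its length and by the fragments mapped in the library, and differences are given on the log2(FPKM + 1) scale. In 2 libraries, nervous system markers went against the labels: the synaptic gene snap25 was at 1659 FPKM in the library labelled gill and 0.0938 FPKM in the library labelled brain, and the glial gene gfap at 108 and 0.0240 FPKM. These libraries are therefore named by label only. The counts of testis-enriched genes over all genes, meiosis genes and axonemal dyneins are also given without them, and the other counts below include them.

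In a fish testis, germ cells develop in cysts, each wrapped by Sertoli cells, while Leydig cells between the tubules make androgens. Spermatogonia divide by mitosis, spermatocytes pair and recombine their chromosomes in meiosis, and spermatids then condense the nucleus and build a flagellum around a microtubule axoneme. PIWI proteins and their small RNAs (piRNAs) silence transposons in these cells. Most bony fish make sperm without an acrosome and use 11-ketotestosterone as the main androgen.

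The label was first set against markers of each cell type. Of the germ cell markers, ddx4, the Vasa helicase, was at 164 FPKM, piwil1 at 129 FPKM, sycp3 at 61.4 FPKM, dmc1 at 30.6 FPKM and tektin-1 at 55.8 FPKM in testis. Sertoli markers were also present, with gsdf at 190.3 FPKM, amh at 39.96 FPKM and fshr at 36.6 FPKM in testis, and so were the Leydig markers cyp17a1 at 174 FPKM and star at 142 FPKM. Egg coat genes were near 0 in testis: zp2 was at 0.374 FPKM in testis and 8675 FPKM in ovary, and zp3 at 0.0762 FPKM in testis and 2207 FPKM in ovary. These markers fit the label. Some other markers of the same cell types did not stand highest in testis, with values given below. The rows used for sycp1, sycp2, cldn11 and cyp11c1 were higher in another library, and dazl and piwil2 were higher in ovary. In bulk libraries, more cells of a type and more RNA per cell cannot be told apart, and this holds for every level below.

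The summed FPKM of the testis library was 527242, against 239905 to 738341 in the other libraries. A single gene without a protein name, C0J50_24638, held 36.3% of it, at 191378 FPKM. In the other libraries this gene was at 89.1 FPKM in liver, 77.05 FPKM in head kidney and at most 0.911 FPKM elsewhere, and it was listed at 0 in ovary, heart, muscle, pituitary, both barbels and the library labelled gill. The gene lies on scaffold178299, positions 1234617 to 1235678 of the deposited annotation, on the plus strand, with 150 coding bases in 2 exons and no domain recorded. FPKM divides by length, so a short model gains from it: in FPKM times coding length, which follows fragments rather than fragments per kilobase, the share was 7.09%. Without this gene the testis sum was 335864 FPKM, and the 10 highest genes held 6.66% of the sum, against 40.2% with it.

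Of the 3 genes on either side of C0J50_24638 on the scaffold, some carry names of the CD59 family, small cell-surface proteins with a three-finger fold. The adjacent gene on the lower-numbered side, leucine-rich repeat-containing protein 30 (C0J50_24637), was listed at 0 in all 15 libraries. Beyond it, receptor-type tyrosine-protein phosphatase T (C0J50_24636) was at 7.22 FPKM in testis and at most 1.22 FPKM elsewhere, in pancreas, and CD59 glycoprotein-like (C0J50_24635) was at 57.3 FPKM in testis and at most 180.3 FPKM elsewhere, in pancreas. The CD59B glycoprotein-like genes on the other side, C0J50_24639 and C0J50_24641, were at 20.4 and 16.02 FPKM in testis, and at 420.3 and 679 FPKM in liver, where each was highest. The unnamed gene between them, C0J50_24640, was at 0.0886 FPKM in testis and at most 0.139 FPKM elsewhere, in maxillary barbel. A protein name or function for C0J50_24638 itself is not given in the files.

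Testis-enriched genes were counted as those at 5 FPKM or more in testis with log2(FPKM + 1) at least 2.32, the log2 of 5, above the highest of the 14 other libraries. There were 257 of them, 1.02% of the 25089 genes, of which 196 had a protein name and 61 had none. Their median testis level was 22.4 FPKM, and 139 of them were below 1 FPKM in all the other libraries. Together they made up 38.9% of the testis sum with C0J50_24638 and 4.09% without it. The count was 285 when the libraries labelled brain and gill were left out. When every library was rescaled to a common sum, the count was 194 with C0J50_24638 in the sums and 287 with it left out. Among the 257, the next highest library was ovary for 63, pituitary for 40 and the library labelled gill for 30. The same count over all genes is not given, here or for the lists below. Just inside the limit stood kinesin-like protein KIF2A, 2.32 above the next library, and just outside it an unnamed gene (C0J50_05104) that also rounds to 2.32.

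**Figure D1:**
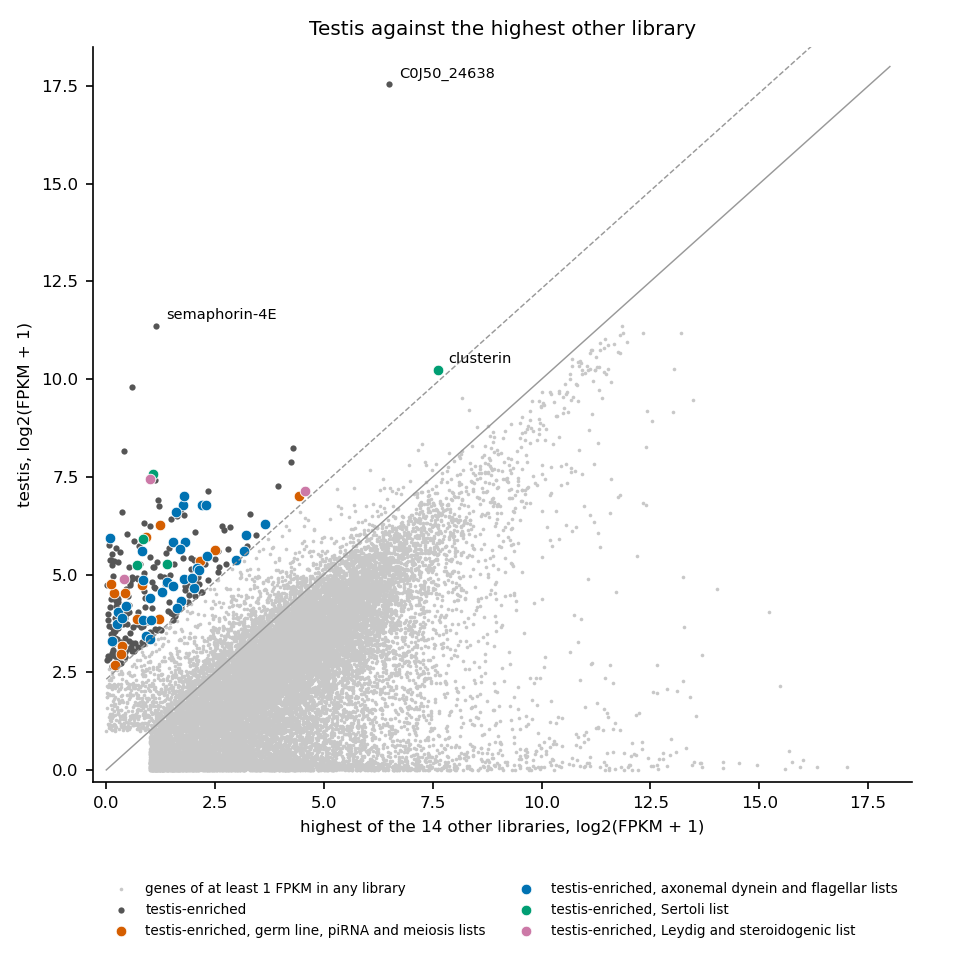
Each point is a gene, with its level in the highest of the 14 other libraries on the horizontal axis and in testis on the vertical axis, both as log2(FPKM + 1). The solid line marks equal levels and the dashed line a 5-fold difference; the 257 testis-enriched genes lie on or above the dashed line, with C0J50_24638 at the top, followed by semaphorin-4E.

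The named gene with the highest level among the testis-enriched was semaphorin-4E (C0J50_11161), of a family of cell guidance proteins, on scaffold20778, positions 11686 to 20372. It was at 2648 FPKM in testis, against 0 to 1.198 FPKM in the other libraries, with a median of 0.0025 FPKM. The neighbouring semaphorin-4E locus, C0J50_11162, was at 95.2 FPKM in testis and at most 0.277 FPKM elsewhere, in head kidney. Both loci were therefore high in testis alone, although reads of near-identical copies can be split or shared by the counting.

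Clusterin, a secreted chaperone known from Sertoli cell fluid in mammals, was at 1213 FPKM in testis, against 0.3001 to 195 FPKM in the other libraries (median 8.02, highest in the library labelled gill). Its neighbour on the scaffold, scavenger receptor class A member 3, was at 42.3 FPKM in testis and 3.63 FPKM in the library labelled gill, the next highest library. Unlike semaphorin-4E, clusterin was above 1 FPKM in most of the other libraries, as its median shows, and it did not meet the rule after median-ratio or common-sum rescaling.

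Among the loci named tubulin beta 2c, subunits of microtubules, C0J50_16326 was at 303 FPKM in testis and 18.4 FPKM in ovary, the next highest library, and C0J50_20400 was at 235 FPKM in testis and 17.9 FPKM in skin, the next highest library. C0J50_20400 did not meet the rule after median-ratio rescaling. ATP-binding cassette sub-family G member 4, known in mammals for moving sterols out of cells, was at 288 FPKM in testis and at most 0.327 FPKM elsewhere, in maxillary barbel. UPF0686 protein C11orf1 homolog was at 119 FPKM in testis and at most 1.27 FPKM elsewhere, in pituitary. Stabilizer of axonemal microtubules 2, which binds microtubules of cilia, was at 108 FPKM in testis and at most 1.32 FPKM elsewhere, in pituitary. The other leading named genes belong to the germ cell, Sertoli and Leydig groups below.

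Besides C0J50_24638, the 4 highest unnamed testis-enriched genes were of several kinds. C0J50_11269, with an immunoglobulin V-set domain and a single coding exon, was at 894 FPKM in testis and at most 0.505 FPKM elsewhere, in liver. C0J50_00558 carries a Speriolin domain, named for a protein of the mouse sperm centrosome, and was at 171 FPKM in testis and at most 1.17 FPKM elsewhere, in pituitary. C0J50_04859 and C0J50_19405, both with 1 coding exon and no recorded domain, were at 153 and 140.4 FPKM in testis, and at most 14.5 FPKM in head kidney and 4.02 FPKM in maxillary barbel. Other unnamed testis-enriched genes, chosen after their values were seen, carry a Testicular haploid expressed repeat (47.8 FPKM in testis, against 4.89 FPKM in the library labelled gill), a Sperm-tail PG-rich repeat (26.6 FPKM in testis, against 0.464 FPKM in ovary) or an Insulin-like domain (52.9 FPKM in testis, against 0.0460 FPKM in spleen).

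The testis-enriched genes were close to all genes in structure. Their median coding length was 1071 bases, against 1158 bases over all genes, and the median number of coding exons was 6 in both sets. They were unnamed more often, with 23.7% of testis-enriched genes against 14.97% of all genes and 6.26% of the genes at 5 FPKM or more in testis. Of the 61 unnamed ones, 29.5% had 1 coding exon, against 37.1% of all unnamed genes. They also lay beside each other: 30 of 257 (11.7%) had another testis-enriched gene as the next gene on the scaffold, against 450 of 25064 genes (1.80%) that had a testis-enriched gene beside them. No test of these shares was made.

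These neighbours formed 15 pairs. Some pairs share a name, such as semaphorin-4E, the polyadenylate-binding protein 1 loci on scaffold124, and the axonemal dynein light intermediate polypeptide 1 loci C0J50_02531 and C0J50_02532, at 108 and 50.1 FPKM in testis. Others do not. The sex-determination gene dmrt1 at 58.98 FPKM lay beside doublesex- and mab-3-related transcription factor 3a at 11.2 FPKM, and the second of these was at most 1.32 FPKM elsewhere. The meiotic mismatch protein msh5 lay beside green-sensitive opsin-4, which was at 6.98 FPKM in testis and at most 0.255 FPKM elsewhere, in skin. Neither this opsin nor doublesex- and mab-3-related transcription factor 3a met the rule after median-ratio or common-sum rescaling.

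In all, 20 lists of genes were laid over the table by protein name, and 478 of their 631 distinct symbols matched. Of several rows with one name, that with the highest mean over all libraries stood for it. Beside each list stands the same summary over all genes: 1.02% testis-enriched, 10% highest in testis among the 21366 genes at 1 FPKM or more in any library, and a median difference of 0.57 between testis and the median of the 14 others over those 21366 genes. The last value is above 0, and it moved with the scaling, to 0.15 after median-ratio rescaling, 0.27 after rescaling to a common sum and 0.72 when C0J50_24638 was left out of that sum. The list medians below are therefore to be read against it, although the lists keep every matched member, also those below 1 FPKM in every library.

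**Figure D2:**
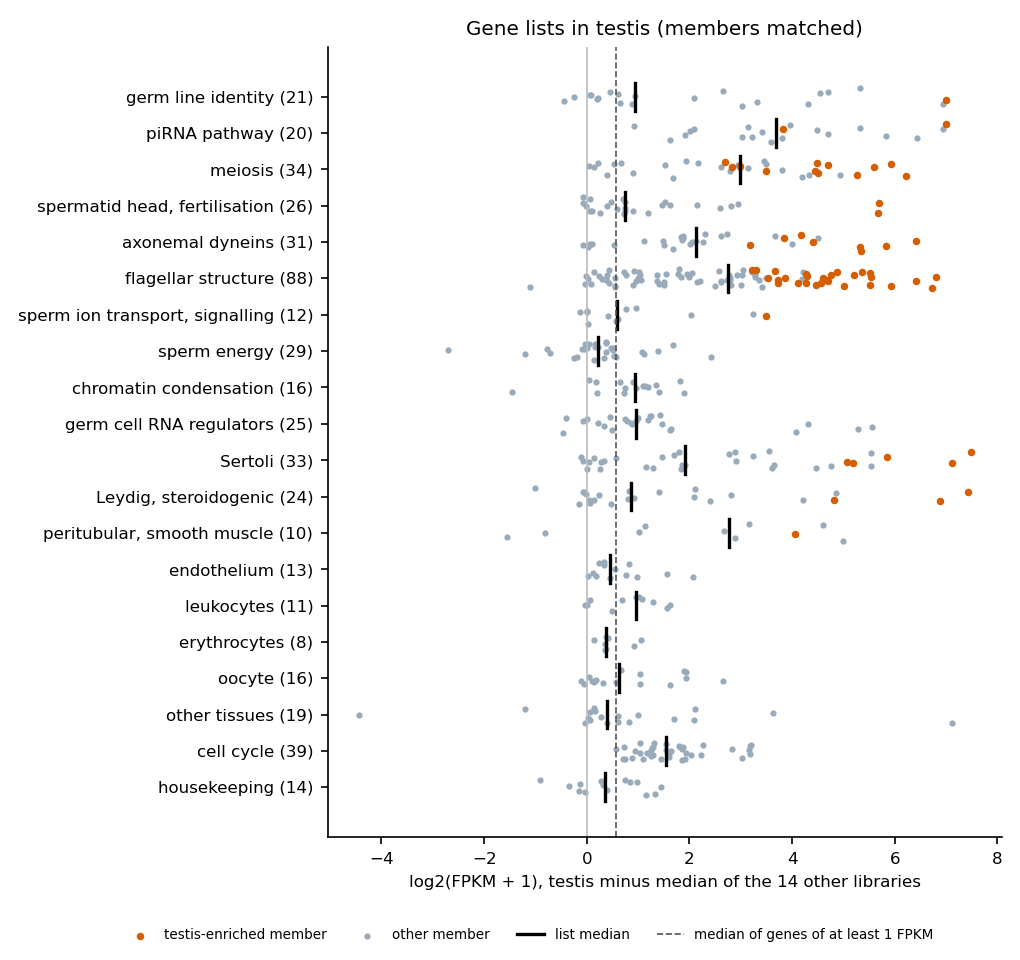
Each point is a matched list member, placed by its log2(FPKM + 1) in testis minus the median of the 14 other libraries; orange points are testis-enriched, black bars are list medians and the dashed line is the median of genes at 1 FPKM or more (0.57). The piRNA, meiosis, flagellar, smooth muscle, dynein and Sertoli medians lie right of the line in the deposited scale and in each of the 3 rescalings. By smaller margins, so do the cell cycle, germ line, RNA regulator, Leydig, chromatin, spermatid head and oocyte medians. The energy, endothelium, erythrocyte and housekeeping medians lie left of the line and fall below 0 after median-ratio rescaling, the energy median also after common-sum rescaling.

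Several germ line genes were high in testis and in ovary. Of 21 matched members of the germ line list, 3 were highest in testis and 1, piwil1, was testis-enriched (4.76% of the list), with a median difference of 0.94. The helicase ddx4 was at 164 FPKM in testis, against 0.0249 to 162 FPKM in the other libraries (median 0.347, highest in ovary). The RNA-binding protein dazl, needed for germ cell entry into meiosis, was at 19.8 FPKM in testis, against 0 to 28.8 FPKM in the other libraries (median 0.0471, highest in ovary). The mRNA regulator dead end, dnd1, was at 9.29 FPKM in testis and 22.2 FPKM in ovary. Each of these was below 4 FPKM outside the gonads, and dazl and dnd1 were lower in testis than in ovary.

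Factors of early or pluripotent germ cells were low in testis. The stem cell factor sall4 was at 3.38 FPKM in testis and 73.9 FPKM in ovary, and lin28a, a regulator of let-7 processing, at 0.151 FPKM in testis and 69.8 FPKM in ovary. Nanog and nanos3 were at 0.0418 and 0.136 FPKM in testis and at 47.8 and 22.4 FPKM in ovary. The spermatogonial markers gfra1, a GDNF receptor, and zbtb16 were at 0.3995 and 3.07 FPKM in testis, against 2.97 FPKM in pituitary and 31.5 FPKM in the library labelled gill.

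The piRNA pathway had the largest median difference of the 20 lists, 3.69, and all 20 of its matched members were above the median of the other libraries in testis. So were all members of the meiosis, cell cycle, endothelium and erythrocyte lists, but not of the other lists. The share over all genes is not given. In 20 of 20 piRNA members the highest other library was ovary. Of the members, 9 were highest in testis, and 2 were testis-enriched. Piwil1, a PIWI protein that carries piRNAs, was at 129 FPKM in testis, against 0 to 20.5 FPKM in the other libraries (median 0.0187, highest in ovary), and did not meet the rule after common-sum rescaling. Its paralog piwil2 was at 7.21 FPKM in testis and 7.697 FPKM in ovary. RING finger protein 17, a tudor-domain protein of germ granules, was at 13.6 FPKM in testis, against 0 to 1.2997 FPKM in the other libraries (median 0.0370, highest in ovary).

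The other members of the pathway followed the same outline with different gonad ratios. Gtsf1, a small zinc finger partner of PIWI proteins, was at 97.3 FPKM in testis and 51.5 FPKM in ovary, and tdrd1, a tudor scaffold, at 69.2 FPKM in testis and 17.4 FPKM in ovary. Mov10l1, the helicase that feeds precursors into the pathway, was at 25.3 FPKM in testis and 125 FPKM in ovary, and the 3′ end methylase henmt1 at 11.1 FPKM in testis and 41.8 FPKM in ovary. So piwil1, tdrd1 and the row used for gtsf1, named gametocyte-specific factor 1-like, stood higher in testis, and mov10l1 and henmt1 stood lower. Another row, named gametocyte-specific factor 1 (C0J50_00821), went the other way, at 8.85 FPKM in testis and 25.5 FPKM in ovary. Without the ovary among the libraries compared, 11 of the 20 were testis-enriched.

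Of 34 matched meiosis genes, 12 (35.3%) were testis-enriched, or 14 without the libraries labelled brain and gill, and 23 were highest in testis, with a median difference of 2.99. Smc1b, the meiotic cohesin subunit, was at 76.2 FPKM in testis, against 0 to 1.34 FPKM in the other libraries (median 0.0332, highest in pancreas). Sycp3, which forms the lateral element of the synaptonemal complex, was at 61.4 FPKM in testis, against 0 to 0.885 FPKM in the other libraries (median 0.0284, highest in ovary). Rec114, needed for meiotic DNA breaks, was at 48.3 FPKM in testis, against 0 to 4.64 FPKM in the other libraries (median 0.0243, highest in ovary). All of these were named as testis-enriched, so their margin over ovary and the other libraries was set by the rule. Members without that margin are given below.

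Further testis-enriched members act at several stages of meiotic prophase. Ccnb1ip1, a ubiquitin ligase of crossover sites, was at 39.5 FPKM in testis and 3.46 FPKM in ovary, the next highest library. Meioc, which keeps germ cells in the meiotic programme in mice, was at 25.98 FPKM in testis and at most 0.0789 FPKM elsewhere, in the library labelled brain. Hormad1, a chromosome axis protein, was at 25.4 FPKM in testis and at most 0.764 FPKM elsewhere, in ovary. The central element protein syce2 was at 22.2 FPKM in testis and at most 0.354 FPKM elsewhere, in spleen, and the crossover protein msh5 at 21.9 FPKM in testis and at most 0.134 FPKM elsewhere, in the library labelled gill. Lower levels were seen for msh4 at 7.98 FPKM, rec8 at 13.7 FPKM, m1ap at 6.78 FPKM and terb2 at 5.46 FPKM in testis, with at most 0.634 FPKM of any of them elsewhere. Of these, msh4, m1ap and terb2 did not meet the rule after median-ratio or common-sum rescaling, nor rec8 after the median-ratio one.

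Several meiosis genes were not higher in testis. Spata22, which works with meiob on single-stranded DNA, was at 46.04 FPKM in testis and 49.9 FPKM in ovary, and mei4, of the DNA break machinery, at 7.02 FPKM in testis and 52.2 FPKM in ovary. The meiotic cyclin ccna1 was at 0.657 FPKM in testis and 1240 FPKM in ovary. The row named synaptonemal complex protein 1 was at 0.348 FPKM in testis, against 3.94 FPKM in mandibular barbel. The recombinase dmc1, highest in testis at 30.6 FPKM, missed the rule because the library labelled gill held 8.69 FPKM, and hfm1 likewise at 10.5 and 2.004 FPKM; both passed it without the libraries labelled brain and gill. A second row named synaptonemal complex protein 2-like, C0J50_01084, was testis-enriched at 15.1 FPKM, though not after median-ratio or common-sum rescaling, while the row used for that name was at 0.0328 FPKM in testis and 27.8 FPKM in the library labelled brain.

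**Figure D3:**
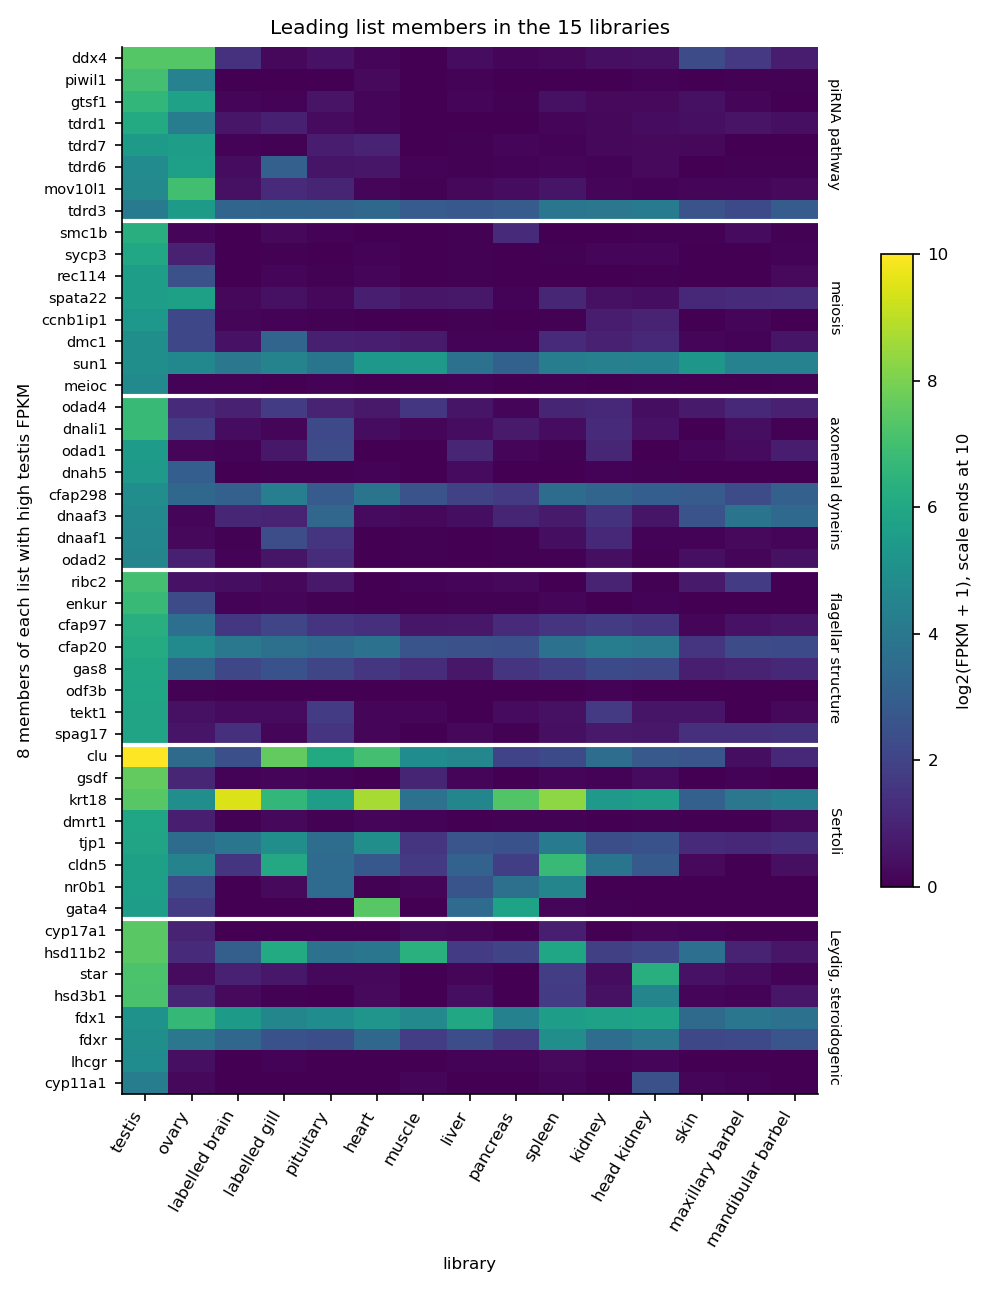
Rows are 8 members with high testis FPKM from each of 6 lists, those not reported here left out, columns are the 15 libraries with testis first, and colour is log2(FPKM + 1) up to 10. The rows were chosen by testis FPKM, so their brightness in testis follows from the choice, and members low in testis are not shown. The piRNA rows shown are also bright in ovary, while most of the meiosis, dynein and flagellar rows shown are dark there.

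Genes named for the spermatid head and for sperm and egg contact were a mixed group. Of 26 matched members, 7 were highest in testis and 2 (7.69%) were testis-enriched, with a median difference of 0.74. Spaca9, a testis-enriched member also known from ciliary microtubules, was at 51.9 FPKM in testis, against 0 to 0.691 FPKM in the other libraries (median 0.0241, highest in pituitary). Izumo1, which on mouse sperm binds the egg receptor, was at 5.81 FPKM in testis and 1.95 FPKM in the library labelled gill, the next highest library.

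Among other members of that group, spaca4 and spam1 stood higher in ovary, dcst1 and dcst2 were below 1 FPKM in every library, and crem was higher in spleen. Spaca4 was at 1.28 FPKM in testis and 1285 FPKM in ovary; its zebrafish relative, Bouncer, acts on the egg. The row named hyaluronidase PH-20, spam1, was at 0.666 FPKM in testis and 51.99 FPKM in ovary. Dcst1 and dcst2, sperm membrane proteins in mice, were at 0.637 and 0.222 FPKM in testis and at most 0.269 and 0.432 FPKM elsewhere. The transcriptional regulator crem, which drives spermatid genes in mice, was at 5.99 FPKM in testis, against 42.1 FPKM in spleen.

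Axonemal dyneins, the motors of the flagellum with their docking and assembly factors, had the largest share of members highest in testis among the 20 lists: 23 of 31 (74.2%), of which 8 (25.8%) were testis-enriched, or 10 without the libraries labelled brain and gill. Their median difference was 2.13. Odad4, the outer arm docking factor also called TTC25, was at 108 FPKM in testis, against 0.141 to 2.41 FPKM in the other libraries (median 0.9198, highest in the library labelled gill). The inner arm light chain dnali1 was at 108 FPKM in testis, against 0.0081 to 3.57 FPKM in the other libraries (median 0.2698, highest in pituitary), and a second locus of that name, C0J50_02532, was also testis-enriched. The docking factor odad1 was at 43.8 FPKM in testis, against 0.0240 to 3.97 FPKM in the other libraries (median 0.121, highest in pituitary).

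The heavy chains differed among themselves. The row used for dnah5, an outer arm chain, was at 40.4 FPKM in testis and 6.84 FPKM in ovary, the next highest library. Dnah12 was at 17.4 FPKM in testis and at most 0.372 FPKM elsewhere, in ovary, and the row named dynein beta chain, ciliary, used for dnah9, at 15.4 FPKM in testis and at most 0.213 FPKM elsewhere, in skin. Dnah1, dnah6 and dnah10 were highest in testis at 3.54, 3.87 and 3.11 FPKM, below the minimum of 5. Dnah3, dnah7 and dnah11 were at 0.145, 0.0491 and 0.0871 FPKM in testis, so not every chain was high there. The row used for dnah5 has 1560 coding bases, far fewer than the other 2 rows of that name, so its level describes a fragment of a gene. It did not meet the rule after common-sum rescaling. Neither of the other 2 rows was testis-enriched, so the count of testis-enriched dyneins includes dnah5 by this fragment only.

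Genes of flagellar structure made up the largest group. Of 88 matched members, 59 (67.05%) were highest in testis and 28 (31.8%) were testis-enriched, and the median difference was 2.75. Their summed level was 1636 FPKM in testis, against 48.8 to 264 FPKM in the other libraries, with a median of 148. The highest sum outside testis was in spleen, where the row used for cfap251 alone was at 115.7 FPKM, against 11.4 FPKM in testis. Another row named for this protein, C0J50_15636, went the other way, at 7.62 FPKM in testis and 0.0679 FPKM in spleen. That row was at most 0.733 FPKM outside testis, in pituitary, and its margin of 2.31 fell just short of the rule.

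Ribc2, a protein inside the doublet microtubules, was at 129 FPKM in testis, against 0 to 2.46 FPKM in the other libraries (median 0.1596, highest in maxillary barbel). Enkurin, another doublet protein that also binds calmodulin, was at 109 FPKM in testis, against 0 to 3.91 FPKM in the other libraries (median 0.0353, highest in ovary). Both were named as testis-enriched, so a 5-fold margin over the highest other library was set by the rule. Cfap97, needed for cilia in vertebrates, was at 76.8 FPKM in testis and 11.4 FPKM in ovary, the next highest library, and tektin-1, a filament along the doublets, at 55.8 FPKM in testis and 2.47 FPKM in pituitary, the next highest library.

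The radial spokes, which pass signals from the central pair to the dyneins, had several enriched members. Rsph4a was at 49.6 FPKM in testis and at most 2.24 FPKM elsewhere, in pituitary, rsph1 at 35.01 FPKM in testis and at most 3.24 FPKM elsewhere, in kidney, rsph9 at 33.6 FPKM in testis and at most 3.38 FPKM elsewhere, in pituitary, and rsph3 at 28.8 FPKM in testis and at most 2.45 FPKM elsewhere, in pituitary. Rsph9 did not meet the rule after median-ratio rescaling. In the central pair, spag17 was at 55.8 FPKM in testis and at most 1.899 FPKM elsewhere, in pituitary, and spag16 at 12.3 FPKM in testis and at most 0.191 FPKM elsewhere, in pituitary. The nexin-dynein regulatory complex was represented by gas8 at 63.1 FPKM, drc7 at 28.1 FPKM and drc1 at 13.4 FPKM in testis, with 8.28, 0.807 and 1.05 FPKM in the next highest library of each.

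Odf3b, of the outer dense fibre family, was at 59.7 FPKM in testis, against 0 to 0.0570 FPKM in the other libraries (median 0, highest in kidney). Tektin-2 and spag6 were highest in testis but lower in level, at 4.93 and 6.04 FPKM, with 0.779 and 0.625 FPKM in kidney. Tektin-3 was at 0.0202 FPKM in testis, against 0.264 FPKM in pituitary. Intraflagellar transport genes, which serve cilia in most tissues, were not testis-enriched: ift57 was at 17.0005 FPKM in testis, against 28.6 FPKM in skin, ift52 at 7.44 FPKM in testis, against 29.3 FPKM in ovary and ift88 at 2.31 FPKM in testis and 2.07 FPKM in ovary, the next highest library.

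Among the 14 other libraries, whether or not testis was higher, the highest was pituitary for 28 of the 88 flagellar members and 12 of the 31 dynein members. It was ovary for 21 and 5 of them. Without the same counts over all genes, whether pituitary or ovary stood out for these lists cannot be told. The master regulator of motile cilia, foxj1a, listed as forkhead box protein J1-A, was at 102 FPKM in testis and at most 2.27 FPKM elsewhere, in kidney; it was not on a list and was named after its value was seen.

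Sperm ion transport and signalling was covered by few rows, since only 12 of 36 symbols matched, and none of the catsper names did. A median difference of 0.59 was close to that of all genes (0.57). Slc26a3, an anion exchanger, was the single testis-enriched member, at 10.3 FPKM in testis and at most 0.451 FPKM elsewhere, in pancreas, though not after median-ratio rescaling. Carbonic anhydrase 15 was highest in testis at 23.9 FPKM, with 6.13 FPKM in ovary. The proton channel hvcn1, known from human sperm, was at 6.56 FPKM in testis, against 58.5 FPKM in the library labelled brain.

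Of 29 matched energy genes, 1 was highest in testis and 0 were testis-enriched, and the median difference was 0.21, turning to -0.29 after median-ratio and -0.12 after common-sum rescaling. The member highest in testis was eno4, an enolase of the sperm tail in mice, at 4.41 FPKM in testis and at most 0.448 FPKM elsewhere, in pituitary. The row named glyceraldehyde-3-phosphate dehydrogenase 2 was at 414 FPKM in testis, against 12.1 to 2173 FPKM in the other libraries, with the testis inside that range.

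Of the chromatin genes, none of the 16 matched members was testis-enriched, 2 were highest in testis, and no symbol for a protamine or a transition protein matched a row. The linker histone h1f0 was at 397 FPKM in testis, below 475 FPKM in the library labelled gill and above 20.2 FPKM in ovary. The histone chaperone nasp was at 14.1 FPKM in testis and 406 FPKM in ovary, and the egg linker histone h1m at 2.704 FPKM in testis and 326 FPKM in ovary.

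RNA regulators of germ cells gave 0 testis-enriched members of 25 when the row with the highest mean stood for each name, and 2 highest in testis. Rbm44 was at 38.8 FPKM in testis and 13.6 FPKM in ovary, and rbm46 at 16.5 FPKM in testis and 4.36 FPKM in ovary, with rbm44 at most 0.0545 FPKM outside the gonads and rbm46 at 3.801 FPKM in mandibular barbel. The translational regulators patl2, cpeb1 and lsm14b were far lower in testis: patl2 was at 1.801 FPKM in testis and 64.2 FPKM in ovary, cpeb1 at 1.400 FPKM in testis and 29.3 FPKM in ovary and lsm14b at 0.186 FPKM in testis and 31.6 FPKM in ovary. With every row of a name counted, 6 further loci named polyadenylate-binding protein 1 were testis-enriched.

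Those loci belong to a wider pattern of shared names among the testis-enriched genes, seen in the data and not on a fixed list. Of 10 loci named polyadenylate-binding protein 1, which coats mRNA tails, 6 were testis-enriched, at 5.71 to 28.4 FPKM in testis, and of 4 named polyadenylate-binding protein 4, 3 were. Eukaryotic translation initiation factor 4 gamma 3, a scaffold of translation initiation, had 6 of 21 loci testis-enriched, at 9.34 to 29.1 FPKM in testis. Enkurin had 3 of 4 loci, ankyrin repeat and EF-hand domain-containing protein 1 had 3 of 5, protein lifeguard 3 had 3 of 4, and sodium- and chloride-dependent creatine transporter 1 had 3 of 6. Of 10 genes with the domain of leucine-rich repeat flightless-interacting proteins, 5 were testis-enriched. Several of these loci are short models: with a minimum of 300 coding bases, the count of testis-enriched genes was 241. The eukaryotic translation initiation factor 4 gamma 3 loci C0J50_10046, C0J50_12979, C0J50_13019 and C0J50_13098 then dropped out. So did the enkurin locus C0J50_10461 and the creatine transporter 1 loci C0J50_10256 and C0J50_12695. Whether loci of a shared name are pieces of 1 gene was not tested. Reads of near-identical copies may be shared between such loci, so their single levels are uncertain.

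Of 33 matched Sertoli cell genes, 12 (36.4%) were highest in testis and 5 (15.2%) were testis-enriched, with a median difference of 1.92. Gonadal somatic cell derived factor, gsdf, a fish ligand of the TGF-beta family in cells around the germ cells, was at 190.3 FPKM in testis, against 0 to 1.12 FPKM in the other libraries (median 0.0681, highest in ovary). Dmrt1, a male sex determination factor, was at 58.98 FPKM in testis, against 0 to 0.792 FPKM in the other libraries (median 0.0447, highest in ovary). Inhibin alpha, which lowers FSH release, was at 37.6 FPKM in testis, against 0 to 1.65 FPKM in the other libraries (median 0.0648, highest in the library labelled gill). In each of these the next highest library was below 2 FPKM.

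Fshr, the receptor through which FSH acts on Sertoli cells, was at 36.6 FPKM in testis, against 0.0157 to 0.623 FPKM in the other libraries (median 0.116, highest in ovary). Anti-Müllerian hormone, amh, was highest in testis at 39.96 FPKM, with 7.98 FPKM in ovary, and met the rule when ovary was left out. Sox9 was at 28.2 FPKM in testis, against 11.7 FPKM in the library labelled brain, and met it without that library and the one labelled gill. The ovary levels of gsdf, dmrt1 and fshr were 1.12, 0.792 and 0.623 FPKM.

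Other genes known from Sertoli cells are shared with other organs. The transcription factor gata4 was at 45.9 FPKM in testis, against 168 FPKM in heart, and wt1 at 40.4 FPKM in testis and 33.9 FPKM in spleen, the next highest library. Desert hedgehog, a signal from Sertoli to Leydig cells, was at 23.7 FPKM in testis, against 33.2 FPKM in spleen. The orphan receptor nr0b1 was at 49.6 FPKM in testis and 22.2 FPKM in spleen, the next highest library. The tight junction gene cldn11 was at 8.42 FPKM in testis, below 31.02 FPKM in spleen. Spleen was the highest other library for wt1, dhh, nr0b1 and cldn11. The row named for nr5a1, steroidogenic factor 1, was at 0.0293 FPKM in testis and no higher elsewhere.

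Of 24 matched genes of Leydig cells and steroid synthesis, 8 (33.3%) were highest in testis and 3 (12.5%) were testis-enriched, and the median difference was 0.87. Star, which carries cholesterol into the mitochondrion, was at 142 FPKM in testis, against 0 to 76.9 FPKM in the other libraries (median 0.219, highest in head kidney). Cyp11a1, which cuts its side chain, was at 17.98 FPKM in testis, against 0.0003 to 4.62 FPKM in the other libraries (median 0.0197, highest in head kidney). Hsd3b1, the next enzyme, was at 141 FPKM in testis, against 0 to 22.7 FPKM in the other libraries (median 0.193, highest in head kidney). Head kidney, which holds the fish interrenal gland, was the next highest library for these 3 genes.

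Cyp17a1, which leads from progestins to androgens, was at 174 FPKM in testis, against 0 to 0.998 FPKM in the other libraries (median 0.0177, highest in ovary). Hsd11b2, which also makes 11-ketoandrogens in fish, was at 172.4 FPKM in testis, against 0.509 to 80.5 FPKM in the other libraries (median 5.24, highest in muscle). Cyp11c1, the 11-hydroxylase before it, was at 6.19 FPKM in testis, 11.9 FPKM in spleen and 6.801 FPKM in head kidney, so testis was not the highest. The row named testosterone 17-beta-dehydrogenase 3 was at 3.75 FPKM in testis, against 28.9 FPKM in the library labelled brain. Lhcgr, the receptor for LH, was at 28.4 FPKM in testis, against 0 to 0.319 FPKM in the other libraries (median 0.0411, highest in ovary), and a second locus of that name, C0J50_05568, was testis-enriched at 11.6 FPKM.

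Enzymes of other steroid branches were low in testis. Aromatase, cyp19a1, which makes oestrogens, was at 0.0125 FPKM in testis and 1.29 FPKM in ovary, and hsd17b1, which makes oestradiol, at 0.143 FPKM in testis and 23.01 FPKM in ovary. Cyp21a2, of the corticosteroid branch, was at 0.223 FPKM in testis and 11.98 FPKM in head kidney. Testis was thus above ovary for cyp17a1 and below it for hsd17b1.

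**Figure D4:**
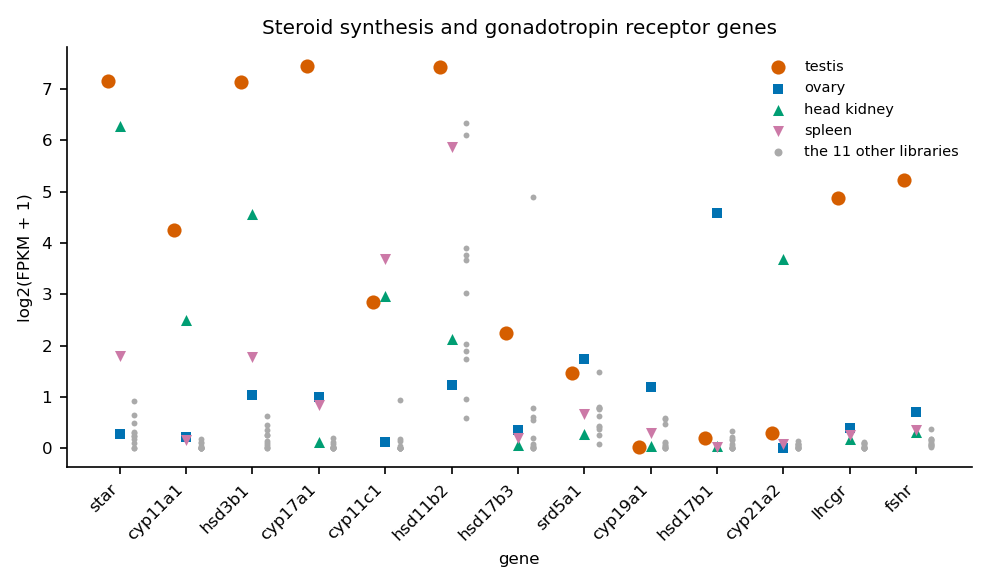
Levels as log2(FPKM + 1) of 13 steroid and gonadotropin receptor genes, with testis drawn as large orange circles, ovary, head kidney and spleen as coloured symbols and the 11 other libraries as grey dots. Testis is highest for star, cyp11a1, hsd3b1, cyp17a1, hsd11b2, lhcgr and fshr, head kidney for cyp21a2, and ovary for hsd17b1 and cyp19a1.

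Smooth muscle genes, which mark the peritubular cells around the tubules and also vessel walls, were high: 6 of 10 matched members were highest in testis and 1 was testis-enriched, with a median difference of 2.78. Transgelin was at 729.7 FPKM in testis and 286 FPKM in spleen, the next highest library, and acta2, smooth muscle actin, at 591 FPKM in testis and 321 FPKM in heart, the next highest library. Calponin-1 was the enriched member, at 21.6 FPKM in testis and at most 1.46 FPKM elsewhere, in heart. Desmin was at 0.125 FPKM in testis, against 2192 FPKM in heart.

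Markers of other cell types were checked as whole lists, and their part in the results above was not tested. Of 13 matched endothelial markers, 0 were highest in testis, and their sum was 134 FPKM in testis and 11.2 to 364 FPKM in the other libraries. The 11 leukocyte markers summed to 1125 FPKM in testis and 78.6 to 3034 FPKM elsewhere, of which cd74 gave 917 FPKM in testis. The 8 erythrocyte markers summed to 343 FPKM in testis and 8.62 to 5741 FPKM elsewhere. The 16 oocyte markers summed to 30.7 FPKM in testis, against 21422 FPKM in ovary, with foxl2 listed at 0 in testis. Among defining markers, the haemoglobin gene hbb was at 304 FPKM and hba at 1.53 FPKM, the leukocyte gene ptprc (CD45) at 23.6 FPKM, and the endothelial gene cdh5 at 10.3 FPKM in testis.

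Markers of unrelated tissues summed to 217 FPKM in testis, and 175 FPKM of that came from carboxypeptidase A1, which was at 3091 FPKM in pancreas and at a median of 0.272 FPKM in the others. The pancreatic protease genes prss1 and cela1 were at 0.0605 and 1.28 FPKM in testis, against 81708 and 3314 FPKM in pancreas. Housekeeping genes had a median difference of 0.35, below the 0.57 of all genes. Cell cycle genes had one of 1.55, with 3 of 39 highest in testis; mcm6, of the replication helicase, was at 39.2 FPKM in testis and 28.96 FPKM in head kidney, the next highest library.

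Few genes were lowest in testis on the deposited scale. No gene (0.0%) was at 5 FPKM or more in each of the 14 other libraries and at least 5-fold lower in testis on the log2(FPKM + 1) scale. Of 1503 genes at 5 FPKM or more in each of the others, 3 had their lowest level in testis. Fatty acid-binding protein, heart, was at 36.7 FPKM in testis, against 61.8 to 473 FPKM in the others, and mid1-interacting protein 1-B was at 5.08 FPKM, against 6.06 to 64.6 FPKM. The third, C0J50_10111, has no protein name, and none of the 3 was chosen by a list. The 5-fold count stayed at 0 after median-ratio rescaling, but the count of 3 was made on the deposited scale only. The factors that divide the libraries in that rescaling ran from 0.517 in pancreas to 2.06 in ovary, with 1.55 in testis. How far the count of 3 depends on the scale was not tested.

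Over all genes, 48 (0.191% of 25089) were gonad-enriched, with the lower of testis and ovary at 5 FPKM or more and 5-fold above the 13 other libraries. Of these, piwil1, tubulin beta 2c (C0J50_16326) and the short row used for dnah5 were also testis-enriched. Of the 48, 14 were higher in testis and 34 in ovary. This split was taken on the deposited scale only. Median-ratio rescaling divides testis by 1.55 and ovary by 2.06, so it lowers ovary more, and the split was not recounted after it. The largest difference was that of intracellular hyaluronan-binding protein 4, at 73.1 FPKM in testis and 566 FPKM in ovary, with at most 0.367 FPKM in the 13 others. Cohesin subunit SA-2-like, of the rings that hold chromatids together, was at 51.1 FPKM in testis and 40.3 FPKM in ovary. Gtsf1, ddx4, tdrd7, spata22 and piwil1 were among the 10 named genes with the largest difference, each with at most 3.92 FPKM outside the gonads.

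Among the others of those 10, putative deoxyribonuclease TATDN2 was at 28.2 FPKM in testis and 87.6 FPKM in ovary. Chromatin target of PRMT1b was at 21.7 FPKM in testis and 18.6 FPKM in ovary. Dazl, the last of them, was at most 0.201 FPKM outside the gonads.

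Set against ovary alone, 2063 of the 11328 genes at 5 FPKM or more in either gonad were at least 4-fold higher in testis (18.2%) and 1336 at least 4-fold lower (11.8%). This split moved with the scaling: it was 1667 higher and 732 lower after median-ratio rescaling, 1526 and 1781 after rescaling to a common sum, and 2591 and 971 with C0J50_24638 left out of that sum. Among named genes, semaphorin-4E and ATP-binding cassette sub-family G member 4 had the largest differences toward testis, and both were listed at 0 in ovary. Neuronal acetylcholine receptor subunit alpha-7, an ion channel, was at 144 FPKM in testis and 0.0195 FPKM in ovary, and myeloid leukemia factor 1 at 203 FPKM in testis and 0.656 FPKM in ovary. Star completed the 5. The 5 named genes with the largest difference toward ovary were all egg coat genes, led by zona pellucida glycoprotein 2, like 1 at 0.374 FPKM in testis and 8675 FPKM in ovary.

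By list, 44 of 88 flagellar members and 12 of 31 dynein members were at least 4-fold higher in testis than in ovary, and 0 of either were as much lower. For meiosis the counts were 16 higher and 4 lower of 34, for piRNA 2 and 1 of 20, and for Sertoli 16 and 1 of 33. Markers of other cell types also stood higher in testis than in ovary, with 7 higher and 0 lower of 11 leukocyte genes, 6 and 1 of 10 smooth muscle genes, and 3 and 0 of 13 endothelial genes, and their part in the Sertoli count was not tested. The median difference from ovary was 2.19 for Sertoli, 2.21 for leukocyte and 3.75 for smooth muscle genes, on the log2(FPKM + 1) scale. The median was 0.66 for housekeeping genes, and -0.33 over the 11328 genes at 5 FPKM or more in either gonad. The lists keep every matched member with no such minimum. Their medians and totals are therefore not like for like with that -0.33 or with the 18.2% and 11.8% above. These list counts and medians against ovary were taken on the deposited scale only. Cell cycle genes ran the other way, with 3 higher and 20 lower of 39, for example ccnb1 at 6.51 FPKM in testis and 263 FPKM in ovary and kif20a at 1.84 FPKM in testis and 197 FPKM in ovary. Among oocyte genes 0 were higher and 12 lower of 16.

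**Figure D5:**
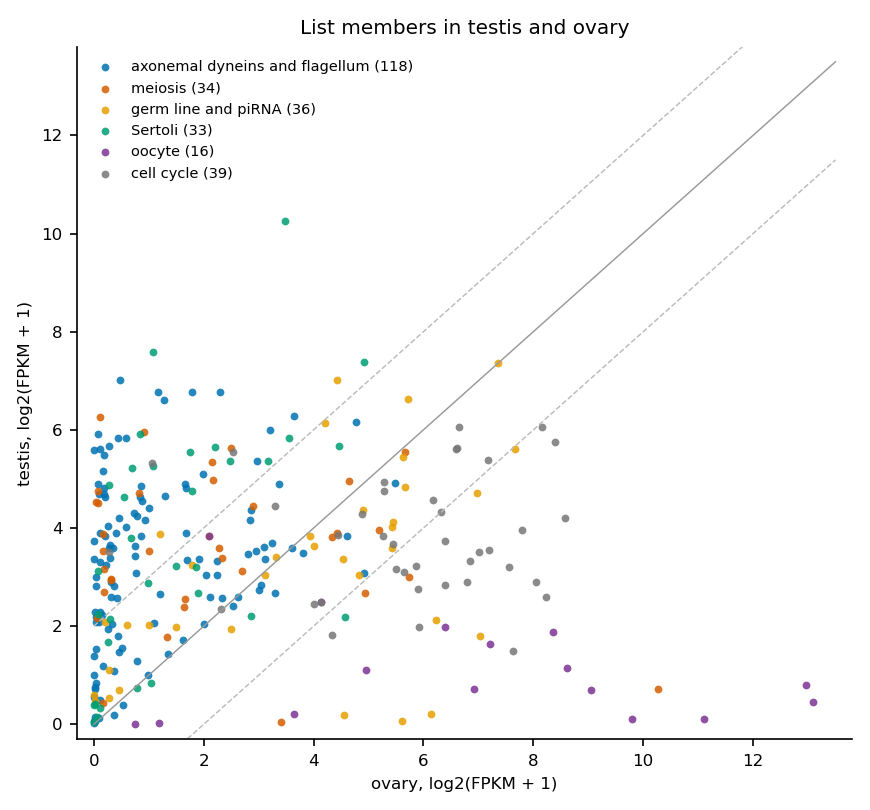
Members of 6 gene groups by their level in ovary (horizontal) and testis (vertical), both as log2(FPKM + 1), with equal levels on the solid line and 4-fold differences on the dashed lines. Flagellar and dynein points lie on or above the lower dashed line, germ line and piRNA points lie on both sides of the solid line, and most oocyte and cell cycle points lie below the solid line.

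Across all 25089 genes, the Spearman correlation of testis with the other libraries was highest with kidney and head kidney, at 0.818 and 0.817, and 0.797 with ovary. It was lowest with the library labelled gill, at 0.678. These are descriptions across genes, which are not independent replicates, and they carry no p-value. In testis 9620 genes reached 5 FPKM, against 3765 to 8615 in the other libraries, and 448 genes reached 1 FPKM in testis while staying below it in all the others, 156 of them at 5 FPKM or more. These counts are on the deposited scale only. Median-ratio rescaling divides testis by 1.55 and the library labelled gill by 0.9996, so the order of the libraries may depend on the scale, which was not tested. No count like the 448 is given for another library.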

How the data were processed

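Poly(A) RNA of 15 tissues was sequenced as paired-end libraries after Trizol extraction and DNase treatment, per the labels' protocols, with 1 library per tissue. The FPKM values were made by the authors with StringTie 1.3.4d, per the submitters' processing notes. For the aligner, its settings, the genome build and filters, nothing is stated in the sources used here. Counts and sequencing depth are unknown, so no interval or limit is given, and a value of 0 is called listed at 0. FPKM divides by gene length, which raises short models, and reads of near-identical genes may be split or shared.

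The 25089 genes of the deposited FPKM table were joined by locus tag to the deposited annotation, which held 25064 of them; gene models carry coding exons only, so lengths are coding lengths. Levels were compared as log2(FPKM + 1), testis against the highest or the median of the 14 others, with Python 3.11.15, pandas 2.3.3 and numpy 2.4.6. Testis-enriched genes needed 5 FPKM in testis and a 5-fold margin over the highest other library. Gonad-enriched genes needed the same of the lower gonad over the 13 others, and testis against ovary a 4-fold difference. The rule for testis-enriched genes was tried on simulated data with genes raised by set folds, and the other steps were not tried in this way. With 1 library a group, no test was made and the spread between fish is unknown.

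The members and lists were chosen with earlier results of these data known. Genes were named by rule: the 15 named and 5 unnamed testis-enriched genes with the highest FPKM, up to 8 testis-enriched members of a list, the 10 named gonad-enriched genes and the 5 each way against ovary with the largest difference, and members of a list where it is described; some members are not reported here. Alternatives were other pseudocounts, minimums, folds, rescalings, left-out libraries and a minimum of 300 coding bases.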

Additional observations from a re-analysis of the deposited data

How the results depend on the processing

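With a 10-fold margin, 126 genes were testis-enriched, 31 gonad-enriched, and 652 were higher and 336 lower in testis than in ovary. With a minimum of 10 FPKM, 996 genes were highest in testis and 1278 were higher in testis than in ovary. Without ovary, 3740 genes were highest in testis. After median-ratio rescaling 1198 were highest in testis and 732 lower in testis than in ovary, and after rescaling to a common sum 1186 were highest in testis. Under the other alternatives run, the count of testis-enriched genes lay between 174 and 316. The share of C0J50_24638 was 7.09% in FPKM times coding length.

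List medians that turned negative were those of the energy genes (-0.29 after median-ratio rescaling, -0.12 with a common sum, -0.18 without muscle, skin and both barbels, and -0.065 against the mean of the others), endothelium (-0.0726 and, without those 4 libraries, -0.0274), erythrocytes (-0.17 and -0.0674), housekeeping genes (-0.10 after median-ratio rescaling) and leukocytes (-0.0737 without those libraries). Against the mean of the others, the oocyte median was -0.0541 and that of other tissues -0.64. The causes were not tested. No paired analysis was possible because each tissue has 1 library, so no library could be left out of a group, and depth is not known.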

Other observations

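Carboxypeptidase A1, a pancreatic digestive enzyme, stood apart from the other pancreatic genes in testis, at 175 FPKM in testis and 3091 FPKM in pancreas. In testis the protease genes prss1 and cela1 were at 0.0605 and 1.28 FPKM. With 1 library, no other sample bears on this value.

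Among gene names not covered by a list and noticed after the values were seen, the creatine transporter 1 loci C0J50_15194 and C0J50_10256 were at 85.2 and 37.9 FPKM in testis, with at most 1.802 and 1.96 FPKM elsewhere. C0J50_10256 has fewer than 300 coding bases. A second locus of ATP-binding cassette sub-family G member 4, C0J50_00220, was at 29.6 FPKM in testis and at most 1.52 FPKM elsewhere, in ovary. Of 12 loci with a Bax inhibitor-1 domain, 4 were testis-enriched.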
